A study of Homo sapiens with 2 samples.

Results

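The 10 genes described here encode amino acid transporters of the plasma membrane that dividing lymphocytes use, namely SLC7A5, SLC3A2, SLC1A5, SLC1A4, SLC7A1, SLC7A6, SLC7A11, SLC38A1, SLC38A2 and SLC43A1. They were chosen by gene symbol, and all 10 were found among the 19096 symbols of the deposited tables. RNA was sequenced from P493-6, a human line of B cells transformed by Epstein-Barr virus, in which tetracycline represses a c-Myc transgene. The high c-Myc group was 1 library from cells 24 h after that repression was released, and the low c-Myc group was 1 library from cells at 0 h of release. Both were grown in RPMI 1640 with serum, both carry the same transgene in the same line, and synthetic RNAs were added to both according to cell number. With 1 library per group there is no replicate check and no p-value, and the values hold for these libraries only.

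A dividing cell must import the amino acids it cannot make and many of those it can. SLC7A5 exchanges internal amino acids for large neutral ones such as leucine, and reaches the cell surface only as the light chain of a heterodimer with the heavy chain SLC3A2, also known as CD98. SLC1A5 exchanges neutral amino acids including glutamine, SLC7A1 takes up arginine and lysine, and SLC38A1 and SLC38A2 move small neutral amino acids into the cell together with sodium. Resting lymphocytes are known to carry little SLC7A5 and SLC3A2 protein and to gain both when they are activated.

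Of the 10 genes, 9 were expressed, meaning a mean RPKM (reads per kilobase of transcript, adjusted by the authors for the size of each library) of at least 1 over both libraries, and SLC7A11 was not. Of the 9, 5 were at least 2-fold higher in high c-Myc cells, on the log2 scale of RPKM plus 0.5, where 24.9% of the 10272 expressed genes passed the same line. These were SLC7A5, SLC3A2, SLC7A1, SLC1A5 and SLC43A1. In bulk RNA a difference in level per cell and a difference in the share of cells that carry a transcript cannot be told apart. SLC38A2 alone was at least 2-fold lower, where 9.74% of the expressed genes lay, and SLC1A4, SLC38A1 and SLC7A6 lay between. The median log2 ratio was 2.40 over the 9 genes and 0.22 over all expressed genes, and the 9 ranged from -1.62 to 4.25. MYC itself (NM_002467) had an RPKM of 2358 in high c-Myc cells and 836 in low c-Myc cells.

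**Figure D1:**
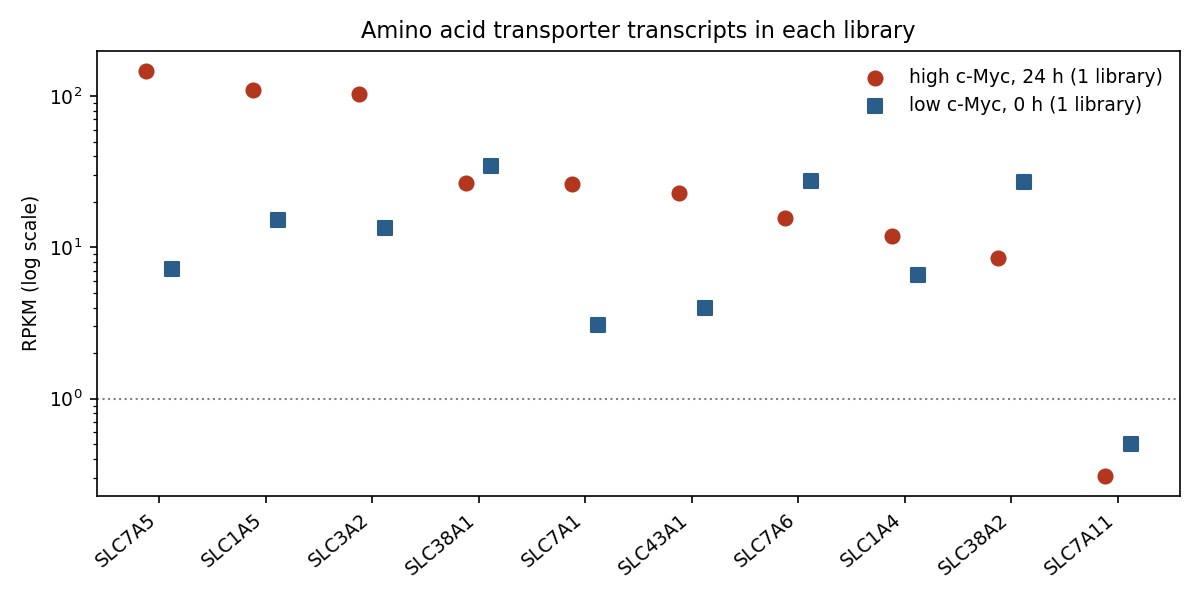
RPKM on a log axis of each of the 10 transporter genes, ordered by its level in high c-Myc cells; circles are the high c-Myc library and squares the low c-Myc library, with 1 library each, and the dotted line marks an RPKM of 1. SLC7A5, SLC1A5 and SLC3A2 lie above 100 in high c-Myc cells, against 15.3 or less in low c-Myc cells, while SLC38A1, SLC7A6 and SLC38A2 are the 3 highest in low c-Myc cells.

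The sequence around the start of transcription was searched for CACGTG, the E-box that MYC binds with MAX, and for TGATGNAAN on either strand, the composite element through which ATF4 acts when amino acids are short. RefSeq promoter windows (GRCh38.p14, 250 bases before to 50 after each start) were found for 9 of the 10 genes, 16 windows in all. CACGTG, which reads the same on both strands, was in 1 window each of SLC7A5, SLC43A1 and SLC1A5, and in 7.26% of all 35116 windows. TGATGNAAN was in 1 window each of SLC1A4, SLC3A2, SLC38A1, SLC7A1 and SLC1A5, and in 3.61% of all windows, and no match of one motif overlapped the other. Of the 8 windows that lie within 100 bases of the start of the transcript row reported below, that of SLC7A5 held CACGTG and those of SLC1A4 and SLC7A1 held TGATGNAAN. The matches of SLC7A1 and SLC3A2 lie downstream of the start, from positions 8 and 37. Such matches describe letters and not bound sites.

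The stretches upstream of 4 genes are shown because these genes span the range of ratios and of motif content. The capitals mark CACGTG at position -130 of SLC7A5, the gene with the highest ratio, and at position -112 in the SLC43A1 window of NM_003627. In SLC1A4 they mark TGATGNAAN on the opposite strand, from position -8. The stretch of SLC38A2, the gene with the lowest ratio, has no capitals. Positions count back from the RefSeq start, and each stretch stops at the most upstream annotated start except that the motif of SLC1A4 was kept whole. The coordinates on GRCh38.p14 are chr16:87869508-87869757 (minus strand) for SLC7A5, chr11:57515787-57515952 (minus strand) for SLC43A1, chr2:64989149-64989399 (plus strand) for SLC1A4 and chr12:46372868-46373023 (minus strand) for SLC38A2.
SLC7A5: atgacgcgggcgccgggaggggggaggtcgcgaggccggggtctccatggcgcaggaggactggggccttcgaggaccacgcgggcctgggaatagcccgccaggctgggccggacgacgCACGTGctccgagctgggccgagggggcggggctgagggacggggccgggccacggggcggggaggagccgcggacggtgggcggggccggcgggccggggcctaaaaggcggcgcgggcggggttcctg
SLC43A1: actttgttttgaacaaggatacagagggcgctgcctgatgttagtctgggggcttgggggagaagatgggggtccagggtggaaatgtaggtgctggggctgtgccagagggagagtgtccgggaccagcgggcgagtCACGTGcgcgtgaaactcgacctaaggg
SLC1A4: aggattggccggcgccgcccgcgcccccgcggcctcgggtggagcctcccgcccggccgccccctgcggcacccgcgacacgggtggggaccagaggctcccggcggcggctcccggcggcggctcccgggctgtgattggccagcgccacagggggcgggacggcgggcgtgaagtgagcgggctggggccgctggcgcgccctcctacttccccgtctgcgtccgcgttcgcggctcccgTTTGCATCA
SLC38A2: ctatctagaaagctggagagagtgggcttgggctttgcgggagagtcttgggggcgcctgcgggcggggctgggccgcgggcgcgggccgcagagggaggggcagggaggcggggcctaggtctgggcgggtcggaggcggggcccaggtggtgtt

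SLC7A5 (NM_003486, chromosome 16) had an RPKM of 146 in high c-Myc cells and 7.23 in low c-Myc cells. By the row taken for each gene, it was the most abundant of the 10 in high c-Myc cells and the sixth in low c-Myc cells, and among all expressed genes it ranked 303 in high c-Myc cells and 5296 in low c-Myc cells. The level was 20.2-fold higher in high c-Myc cells, a log2 ratio of 4.34 without a pseudocount (95% counting interval 4.29 to 4.39 on about 69980 reads from high and 3379 from low c-Myc cells) and 4.25 with it. That ratio ranked 33 of the 10272 expressed genes. Its heavy chain SLC3A2 (NM_001013251, chromosome 11) stood at 102.5 in high c-Myc cells and 13.4 in low c-Myc cells, a 7.67-fold higher level with a log2 ratio of 2.89 (rank 255). All 4 deposited SLC3A2 transcript rows had log2 ratios of 2.89, although their levels spanned 86.2 to 102.5 in high c-Myc cells and 11.2 to 13.4 in low c-Myc cells. Partner and heavy chain were therefore both higher, with a log2 ratio 1.35 larger for SLC7A5.

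Because each light chain needs the same heavy chain, their levels per length were set side by side. In the high c-Myc library SLC3A2 stood at 0.604 of the summed RPKM of 6 light chain genes, which came to 169.8, and in low c-Myc cells at 0.270 of a sum of 49.4. SLC7A5 made up 86.1% of that light chain sum in high c-Myc cells and 14.6% in low c-Myc cells. SLC7A6 made up 9.23% in high c-Myc cells and 55.4% in low c-Myc cells. SLC7A7 made up 4.49% in high c-Myc cells and 28.9% in low c-Myc cells. The light chain transcripts in low c-Myc cells were thus mostly those of SLC7A6 and SLC7A7, which trade cationic for neutral amino acids, and in high c-Myc cells mostly those of SLC7A5. SLC7A11, the cystine and glutamate exchanger, came to 0.182% in high c-Myc cells and 1.02% in low c-Myc cells, and SLC7A8 and SLC7A10 were below both. Adding up all rows of each gene in place of taking 1 row gave a ratio of SLC3A2 to its light chains of 1.91 in high c-Myc cells and 0.53 in low c-Myc cells, and SLC7A5 shares of 75.9% in high c-Myc cells and 8.01% in low c-Myc cells. Adding rows counts shared exons more than once for genes with several rows, such as SLC3A2 and SLC7A6. SLC7A5 has 1 row, so its share could not rise under this change.

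**Figure D2:**
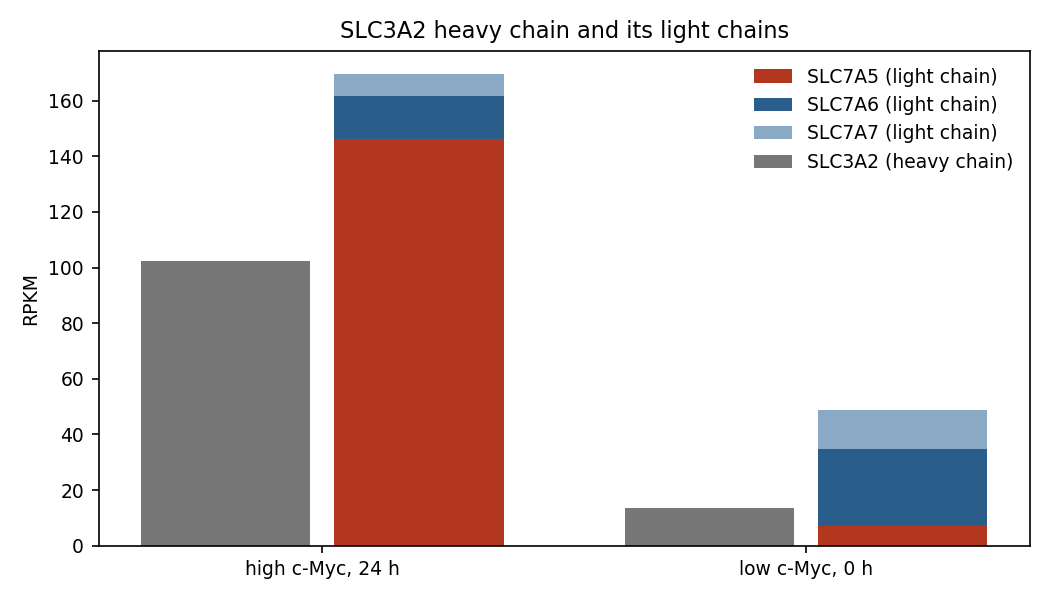
RPKM of the SLC3A2 heavy chain (grey) beside the stacked RPKM of its 3 most abundant light chain genes, in high c-Myc cells (left) and the low c-Myc library (right), with 1 library each. SLC7A5 makes up most of the light chain bar in high c-Myc cells, at 146 of 169.8, and little of it in low c-Myc cells, at 7.23 of 49.4; SLC7A8, SLC7A10 and SLC7A11 are too low to draw.

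SLC7A6 (NM_003983, chromosome 16) itself stood at an RPKM of 15.7 in high c-Myc cells and 27.4 in low c-Myc cells. Its log2 ratio was -0.79, short of the 2-fold line, and its second row gave the same value. With the ratios centred on the median of expressed genes it passed the line at -1.01, and it did so at -1.09 and -1.32 with RPKM rescaled to equal sums without the synthetic RNAs and with quantile normalization. The protein-coding gene SLC7A6OS overlaps it on the other strand, and whether counting used the strand is not given, so reads of the pair cannot be told apart. SLC7A6OS stood at an RPKM of 12.8 in high c-Myc cells and 9.80 in low c-Myc cells. SLC7A11 (NM_014331, chromosome 4) was the least abundant of the 10 in both libraries, at an RPKM of 0.31 in high c-Myc cells and 0.504 in low c-Myc cells. About 315 reads from high and 501 from low c-Myc cells lie behind those values, so it was detected in both libraries.

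SLC1A5 and SLC1A4 are related exchangers of neutral amino acids. SLC1A5 (NM_005628, chromosome 19) had an RPKM of 110.3 in high c-Myc cells and 15.3 in low c-Myc cells, a 7.23-fold higher level with a log2 ratio of 2.81. Its shorter rows gave 2.68 and 2.67. SLC1A4 (NM_003038, chromosome 2), which prefers alanine, serine and cysteine, had 11.8 in high c-Myc cells and 6.55 in low c-Myc cells, 1.81-fold higher with a log2 ratio of 0.81. Its second row, NM_001193493, gave 0.43. SLC1A5 was thus the more abundant in both libraries, by 9.31-fold in high c-Myc cells and 2.33-fold in low c-Myc cells.

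SLC7A1 (NM_003045, chromosome 13), the main carrier of arginine and lysine in many cells, had an RPKM of 26.1 in high c-Myc cells and 3.08 in low c-Myc cells. That is an 8.46-fold higher level, and the log2 ratio was 2.89 with the pseudocount and 3.08 without it. It was the least abundant of the 9 expressed genes in low c-Myc cells and the fifth in the high one. SLC43A1 (NM_001198810, chromosome 11), a facilitative carrier of large neutral amino acids that needs no heavy chain, had 22.95 in high c-Myc cells and 3.95 in low c-Myc cells, 5.81-fold higher with a log2 ratio of 2.40. Its other row, NM_003627, gave 2.41. Its relative SLC43A2 had 47.9 in high c-Myc cells and 21.2 in low c-Myc cells, so it was the more abundant of the pair in both, by 2.09-fold in high c-Myc cells and 5.37-fold in low c-Myc cells.

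The sodium-coupled carriers SLC38A1 and SLC38A2, neighbours on chromosome 12, had lower RPKM values in high c-Myc cells. SLC38A1 (NM_030674) had an RPKM of 26.7 in high c-Myc cells and 34.5 in low c-Myc cells, a log2 ratio of -0.36, and -0.43 from its other row. SLC38A2 (NM_018976) had 8.48 in high c-Myc cells and 27.1 in low c-Myc cells, a 3.20-fold lower level with a log2 ratio of -1.62. It ranked 5416 among expressed genes in high c-Myc cells and 1666 in low c-Myc cells. SLC38A1 was thus the more abundant of the pair in both libraries, by 3.15-fold in the high and 1.27-fold in the low. An antisense transcript is annotated across SLC38A2, with the same limit on strand as for SLC7A6.

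The order of levels differed between the libraries. In the high c-Myc library it ran SLC7A5, SLC1A5, SLC3A2, SLC38A1, SLC7A1, SLC43A1, SLC7A6, SLC1A4, SLC38A2 and SLC7A11, and only SLC38A1 and SLC7A1 were neighbours whose 95% counting intervals overlapped (26.4 to 27.1 and 25.7 to 26.4). In the low c-Myc library it ran SLC38A1, SLC7A6, SLC38A2, SLC1A5, SLC3A2, SLC7A5, SLC1A4, SLC43A1, SLC7A1 and SLC7A11, with overlap only between SLC7A6 and SLC38A2 (26.97 to 27.8 and 26.7 to 27.6). These intervals hold for the row taken for each gene, and other rows can change the order. A shorter SLC1A5 row stood at 102.47 in high c-Myc cells, just below SLC3A2 at 102.51. The second SLC1A4 row stood at 7.36 in low c-Myc cells, above SLC7A5 at 7.23. SLC7A5, SLC3A2 and SLC1A5 together held 76.2% of the summed RPKM of the 10 genes in high c-Myc cells and 25.8% in low c-Myc cells. SLC38A1, SLC7A6 and SLC38A2 held 10.8% in high c-Myc cells and 64.1% in low c-Myc cells. The sum over the 10 genes was 471 in high c-Myc cells and 139 in low c-Myc cells.

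**Figure D3:**
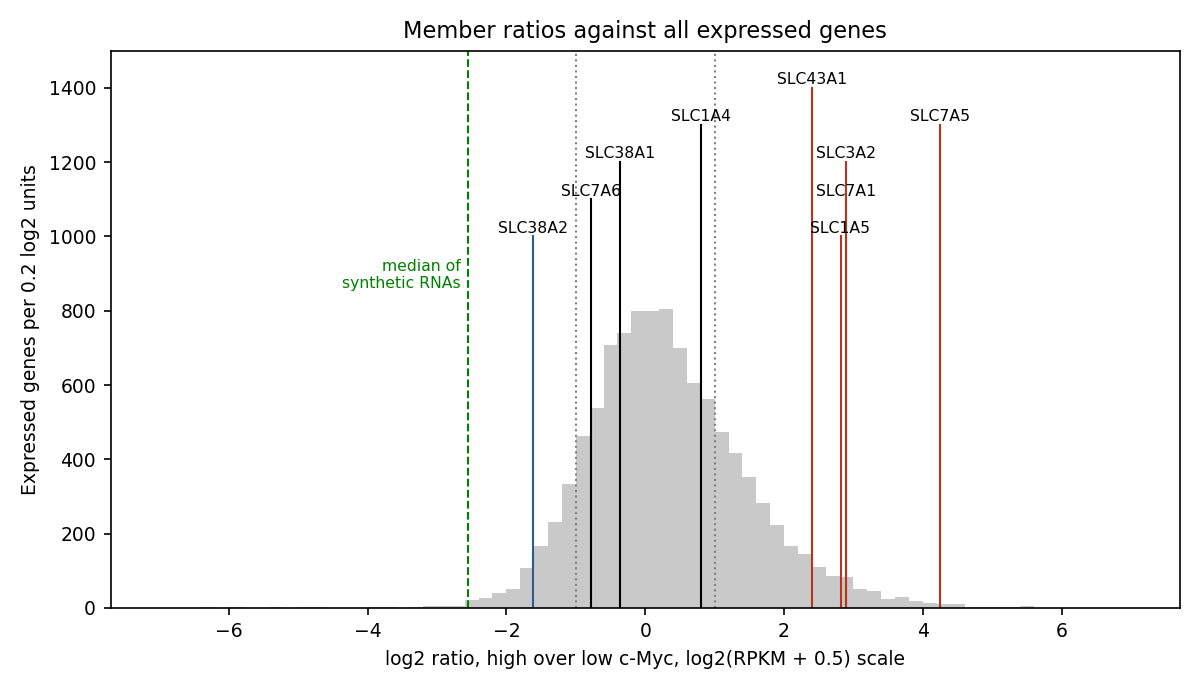
Histogram of the log2 ratio, high over low c-Myc, on the log2(RPKM + 0.5) scale, for the 10272 expressed genes, with a labelled line at each of the 9 expressed transporter genes; the dotted lines mark 2-fold in each direction and the dashed line is the median of the synthetic RNAs. SLC43A1, SLC1A5, SLC7A1, SLC3A2 and SLC7A5 lie at 2.40 or above, SLC38A2 lies at -1.62, and SLC7A6, SLC38A1 and SLC1A4 lie between the dotted lines.

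Per cell, the same genes were set against the synthetic RNAs. The 46 synthetic RNAs whose RPKM reached the floor of 1 in each library had a median log2 ratio of -2.56 (SD 0.54 over the synthetic RNAs), which was subtracted. On that scale 8 of the 9 expressed transporters were at least 2-fold higher, which held for 97.1% of all expressed genes, none was 2-fold lower (0.0876% of all), and SLC38A2 lay just under the line at 0.94. SLC7A5 stood at 6.80, SLC3A2, SLC7A1 and SLC1A5 at 5.45, 5.45 and 5.37, SLC43A1 at 4.96 and SLC1A4 at 3.37. SLC38A1 and SLC7A6 stood at 2.19 and 1.77, below the median of 2.78 over all expressed genes. SLC38A1, SLC7A6 and SLC38A2 therefore had a lower RPKM but more transcript per cell in high c-Myc cells, 4.56-fold for SLC38A1, 3.37-fold for SLC7A6 and 1.84-fold for SLC38A2 by the ratio of RPKM. From the authors' column renormalized to the synthetic RNAs, SLC7A5 gave 6.39 and SLC38A2 gave 0.52. For SLC7A11, whose RPKM is near the pseudocount, the per-cell log2 ratio was 2.25, 1.21 with the pseudocount added after the division and 0.73 from the authors' renormalized column.

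**Figure D4:**
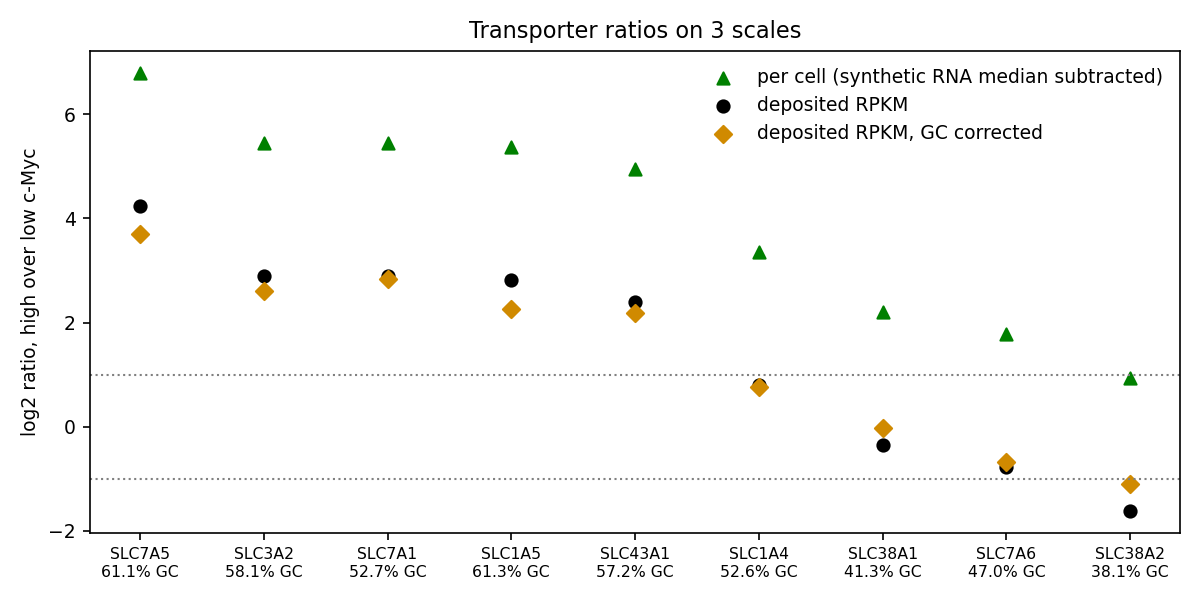
Log2 ratio, high over low c-Myc, of the 9 expressed transporter genes on 3 scales, per cell (triangles), as deposited (circles) and as deposited after a correction for transcript GC content (diamonds), with 1 library per group and dotted lines at 2-fold. SLC7A5 stands highest, at 6.80, 4.25 and 3.70, and SLC38A2 lowest, at 0.94, -1.62 and -1.10. The per-cell scale subtracts the same value from every gene, so its order is the deposited order by construction. Only the GC correction could change the order. The 5 genes at the left have transcript GC contents of 52.7% or more and the 3 at the right 47.0% or less.

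The genes also differed in the base composition of their transcripts. The 5 genes past 2-fold upwards had GC contents of 52.7% (SLC7A1) to 61.3% (SLC1A5), and SLC1A4 had 52.6%. SLC7A6 had 47.0%, SLC38A1 41.3%, SLC38A2 38.1% and SLC7A11 35.4%, against a median of 50.3% over expressed genes. Subtracting the median ratio of expressed genes of like GC content and adding back the overall median left 5 genes higher and SLC38A2 lower. The corrected log2 ratios were 3.70 for SLC7A5, 2.84 for SLC7A1, 2.60 for SLC3A2, 2.27 for SLC1A5 and 2.18 for SLC43A1. They were 0.76 for SLC1A4, -0.03 for SLC38A1, -0.69 for SLC7A6 and -1.10 for SLC38A2.

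Most other amino acid transporters of the plasma membrane were silent or weak in these cells. Of 23 further genes, 5 were expressed, 3 of them past 2-fold upwards and none downwards, beside the 24.9% and 9.74% of all expressed genes, and their median log2 ratio was 1.16. SLC38A5, a sodium-coupled carrier of glutamine and other neutral amino acids, stood at an RPKM of 58.6 in high c-Myc cells and 4.65 in low c-Myc cells, a log2 ratio of 3.52. It passed its relative SLC38A1 in high c-Myc cells, by 2.19-fold, while SLC38A1 was 7.42-fold above it in low c-Myc cells. The glycine transporter SLC6A9 had a log2 ratio of 1.83, with an RPKM of 2.31 in high c-Myc cells and 0.29 in low c-Myc cells. It passed the floor of 1 only through the library where it was high, so its place in the count follows in part from that filter. SLC43A2 had a log2 ratio of 1.16 (0.87 after the GC correction), while the taurine transporter SLC6A6 stood at -0.22 and SLC7A7 at -0.86.

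Genes listed as carriers of the lysosome, and genes of the proteins that report amino acid supply to the growth kinase complex mTORC1, were mostly within 2-fold. Of 10 expressed genes listed as lysosomal carriers 2 passed 2-fold upwards and none downwards, close to the 24.9% and below the 9.74% of all expressed genes, around a median of 0.41. SLC38A10, 1 of these 2, was listed without a check that its protein lies in the lysosome. MFSD12, linked to cysteine import into lysosomes, had a log2 ratio of 2.39 (1.04 after the GC correction), SLC38A10 one of 1.32 (0.38 after it) and the cystine exporter CTNS one of 0.96. SLC38A9, an arginine sensor of the lysosome, had -0.80, SLC15A4 -0.63 and SLC29A3, a nucleoside carrier, -0.15. Of 22 expressed genes of amino acid sensing, 4 passed 2-fold upwards and 1 downwards, both shares below those of all expressed genes (24.9% and 9.74%), around a median of 0.17. Genes of the GATOR complexes did not move together, since WDR24, SEH1L and NPRL3 had 2.01, 1.81 and 1.42 (NPRL3 0.88 after the GC correction), while NPRL2, SEC13 and WDR59 had 0.89, 0.69 and 0.19, and DEPDC5 and MIOS -0.60 and -0.61. The Rag GTPase gene RRAGB had -1.37 and the sestrin gene SESN3 -0.95.

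Genes of the response to amino acid shortage were more often past 2-fold upwards than downwards. Of 19 expressed genes 9 passed upwards, beside 24.9% of all expressed genes, and 2 downwards, close to the 9.74% of all, around a median of 0.997. The proline enzyme PYCR1 and the serine enzymes PSAT1 and PHGDH had log2 ratios of 3.67, 3.14 and 2.84. PSAT1, CEBPB and CHAC1, all counted upwards, had RPKM values of 10.9, 3.95 and 3.79 in high c-Myc cells. In low c-Myc cells they had 0.80, 0.77 and 0.74. They passed the floor of 1 only through the library where they were high, so their place in the count follows in part from that filter. The genes lower by RPKM were the transcription factors ATF3 at -1.62 and DDIT3 at -1.51, and DDIT4, an inhibitor of mTORC1, stood at -0.28. Per cell, 18 of the 19 were at least 2-fold higher, beside 97.1% of all expressed genes, and none was 2-fold lower. ATF3 stood at 0.94 and DDIT3 at 1.04 per cell. ATF4, the factor that drives many of these genes, had an RPKM of 23.9 in high c-Myc cells and 17.1 in low c-Myc cells, a log2 ratio of 0.48.

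Enzymes that use the imported amino acids were set beside the carriers. Of 12 expressed genes of glutamine, glutamate and cystine use, 3 passed 2-fold upwards, the same share as the 24.9% of all expressed genes, and none downwards (9.74% of all), around a median of 0.92. They were CBS, which starts cysteine synthesis, at 3.70, the lipid peroxidase GPX4 at 2.14 and the mitochondrial aspartate aminotransferase GOT2 at 1.59. CBS had an RPKM of 9.32 in high c-Myc cells and 0.257 in low c-Myc cells. It thus passed the floor of 1 only through the library where it was high. GCLC, which starts glutathione synthesis, had -0.72, GSR -0.14 and the glutamine synthetase gene GLUL -0.0028. Of 13 expressed genes of branched-chain and aromatic amino acid breakdown, 6 passed 2-fold upwards and none downwards, beside 24.9% and 9.74% of all expressed genes, around a median of 0.95. Under each of the 3 other scalings 3 of the 13 passed upwards. BCAT2 and FAH both had 2.12 and MCCC2 had 1.38, while DBT had -0.74, ACADSB -0.28 and MCCC1 0.07. BCKDHB, counted upwards at 1.09, also passed the floor only through the high c-Myc library, with an RPKM of 2.30 there and 0.81 in low c-Myc cells. These list ratios and calls are on the deposited scale. Per cell, every expressed gene of the plasma membrane, lysosomal, sensing, glutamine and breakdown lists was at least 2-fold higher, beside 97.1% of all expressed genes.

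**Figure D5:**
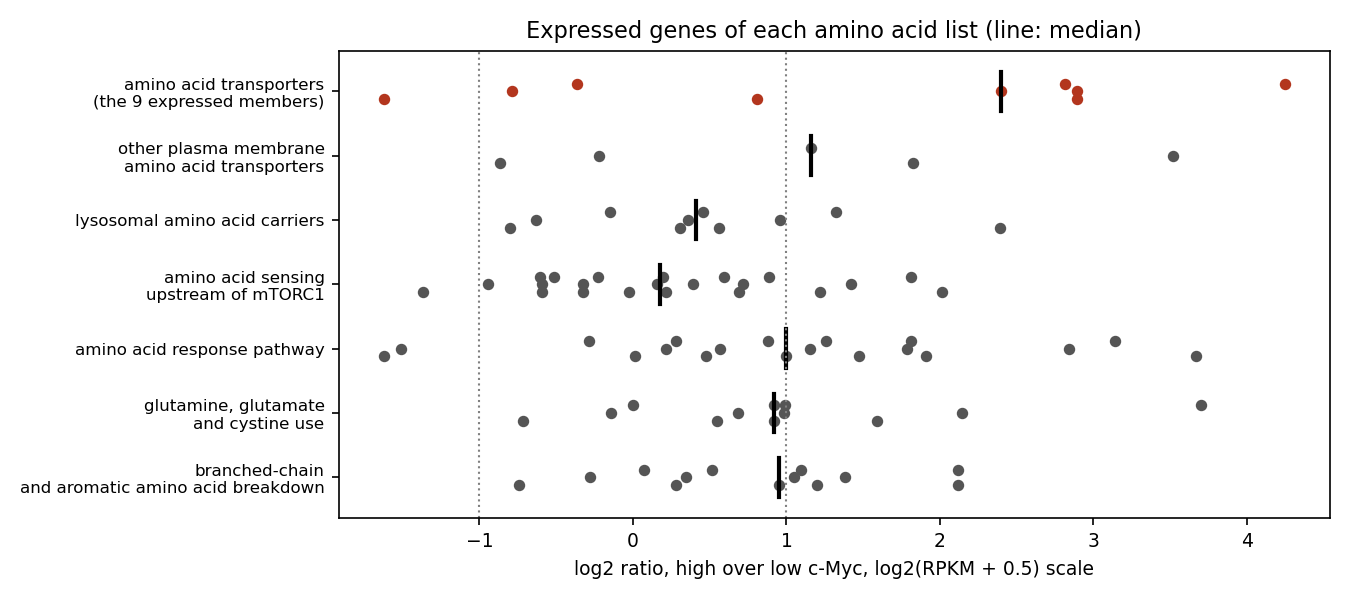
Log2 ratio, high over low c-Myc, on the log2(RPKM + 0.5) scale, of each expressed gene of 7 lists, 1 point per gene and 1 library per group, with a black line at each list's median and dotted lines at 2-fold. The 9 expressed transporter genes (top) spread from -1.62 to 4.25 around a median of 2.40, and the medians of the other lists lie between 0.17 and 1.16.

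The 3 expressed genes whose position was nearest to that of SLC7A5, by mean level and log2 ratio over these 2 libraries, were NDUFAB1, C20orf27 and ATAD3B, with log2 ratios of 4.34, 4.41 and 4.04. With 2 libraries this likeness is a matter of level and ratio alone. All 9 B cell markers examined were expressed, with a summed RPKM of 1944 in high c-Myc cells and 4700 in low c-Myc cells. Summed over 7 T cell markers the RPKM was 2.17 in high c-Myc cells and 13.3 in low c-Myc cells, with CD3D, CD8A and TRAT1 at 0 in both, and CD3E, CD3G and CD2 the 3 expressed ones, at log2 ratios of -2.14, -2.04 and -1.65. CD3G had an RPKM of 0.13 in high c-Myc cells and 2.10 in low c-Myc cells, and CD2 had 0.33 and 2.11. Both passed the floor of 1 only through the low c-Myc library, so their ratios follow in part from that filter. Over 7 myeloid markers it was 35.6 in high c-Myc cells and 150.6 in low c-Myc cells, with S100A8 and S100A9 at 0 in both and CD68, LYZ and ITGAM expressed at -2.53, -2.36 and -1.52. Of 5 NK cell markers PRF1 was expressed (-0.81), with sums over the list of 5.20 in high c-Myc cells and 10.6 in low c-Myc cells and KLRD1 and GNLY at 0 in high c-Myc cells. Of 7 markers of fibroblasts and epithelium COL1A1 (0.19) and PDGFRB (-1.76) were expressed, with sums of 13.1 in high c-Myc cells and 19.3 in low c-Myc cells and with DCN and KRT18 at 0 in both, and of 5 erythroid and platelet markers none was, with HBB, PF4 and PPBP at 0 in both. The summed RPKM of 5 of the 6 marker lists was lower in high c-Myc cells, as was the RPKM of SLC38A1, SLC7A6 and SLC38A2. Per cell, 8 of the 9 B cell markers were at least 2-fold higher, beside 97.1% of all expressed genes. Of the 3 expressed T cell markers none reached that line, with the same limit of the filter for CD3G and CD2. Of the 3 expressed myeloid markers 1 did. No expressed marker was 2-fold lower per cell. The part of the marker lists in the transporter ratios was not tested.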

How the data were processed

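Poly(A) RNA of 2 P493-6 samples was sequenced. Per the labels' protocols, ERCC synthetic RNAs were added by cell number and libraries kept the strand. Per the submitters' processing notes, Bowtie and build hg18 were used; which counting tool was run, and whether it used strand, was not given in sources used here. The authors deposited RPKM values per RefSeq transcript, and a spike-in renormalized signal by a method not stated, per the file headers, which served only as an alternative.

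The row with the highest mean RPKM represented each symbol. Log2 ratios of high over low used a pseudocount of 0.5, which understates differences of weak genes, and a gene was called at a log2 ratio of 1 or -1. RPKM values are not counts, so no count model was run. Steps between low values implied about 105500000 reads for the high c-Myc library and 103000000 for the low one, where 46.2% and 49.3% of 2277 and 3196 transcripts with up to 20 reads were whole to within 0.05, where chance gives 10%. Reads per gene are RPKM times the length of a GENCODE release 29 transcript paired by accession, and exact binomial and Poisson intervals at 95% cover counting error only. GC content came from the same transcripts (9949 or 96.9% of expressed genes), and the correction used 20 bins. Promoters are from RefSeq. The files give no positions.

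The genes and lists were chosen with earlier results of these data known. Named genes are the 10 transporters, the 3 highest and 3 lowest expressed genes of each list, expressed markers of other cell types, the 3 genes nearest to SLC7A5, and MYC. Others were named after their values were seen because they bear on a transporter or complete a complex (SLC7A6OS, ATF4, NPRL2, SEC13, WDR59, DEPDC5, and genes listed at 0). CEBPB, CHAC1 and BCKDHB were named because they passed the floor of 1 only through the high c-Myc library. The calling procedure was tested on simulated data that held counting noise only, so that test does not cover differences between cultures, a GC trend or a shift of all genes. Python 3.11.15, numpy 2.4.6, pandas 2.3.3, scipy 1.17.1 and matplotlib 3.10.9 were used. Alternatives tried were other pseudocounts, no filter, summed rows, 3 scalings, the GC correction and 4 further per-cell settings.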

Additional observations from a re-analysis of the deposited data

How the results depend on the processing

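On the deposited scale the 9 expressed transporters kept their sign in all 72 values from 8 alternatives and their side of the 2-fold line in 69. Some of these values could not differ. Leaving out the filter does not change a transporter's ratio, and summing rows does not change SLC7A5, SLC7A1 or SLC38A2, which have 1 row each. The 3 exceptions were SLC7A6 under centring on the median, equal RPKM sums without synthetic RNAs and quantile normalization, each of which gave 2 lower transporters in place of 1. These scalings put the median of all genes at 0, -0.07 and -0.09 in place of 0.22, and higher genes at 57.3%, 53.2% and 50.6% of the genes past 2-fold, in place of 71.8%. Per cell, all 54 values from 6 alternatives kept sign and side. Here too some values could hardly differ. The mean of the synthetic RNAs and a floor of 10 for them only change the value subtracted from every gene, and took SLC7A5 from 6.80 to 6.78 and 6.74. SLC7A5 ranged from 3.70 to 4.32 as deposited and from 6.39 to 6.88 per cell, and SLC38A2 from -2.09 to -1.10 as deposited and from 0.52 to 0.99 per cell.

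Among the other lists, the counts that moved by more than 1.5 times were as follows. The pseudocount of 0.1 gave 2 lower sensing genes and 5 higher genes of glutamine, glutamate and cystine use. Each of the 3 scalings gave 1 lower plasma membrane transporter and 3 higher breakdown genes; centring and equal sums gave 1 lower lysosomal carrier and 2 lower sensing genes, and quantile normalization gave 1 higher lysosomal carrier, 2 higher sensing genes and 3 lower ones. The GC correction gave 1 higher lysosomal carrier and 5 higher genes of glutamine, glutamate and cystine use. Smaller moves took the higher response genes between 7 and 10 and the lower ones to 3, the higher plasma membrane transporters between 2 and 4, the higher lysosomal carriers to 3, the higher sensing genes to 3, the higher genes of glutamine, glutamate and cystine use to 4 and the higher breakdown genes to 5. Summing rows gave 1.91 and 0.53 for SLC3A2 over its light chains in the high and low c-Myc libraries. The cause of these moves was not tested beyond the construction of each alternative. Synthetic RNAs made up 17.5% of the summed RPKM of low c-Myc cells, against 2.75% for high c-Myc cells. Rescaling to equal sums without them took SLC7A5 from 4.25 to 3.93 and the median of expressed genes from 0.22 to -0.07. How much of each deposited ratio goes with that share was not tested further. No paired analysis was possible because each group has 1 library. Each transporter rests on at least 315 approximate reads per library, and the lack of replicates limits every comparison.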
